A study of Mus musculus with 157 samples.

Results

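The m6A erasers and YTH readers are 7 genes out of 36102 listed in the input table of a mouse blood atlas. They were chosen by symbol: the 2 demethylases Fto and Alkbh5, the 3 cytoplasmic readers Ythdf1, Ythdf2 and Ythdf3, and the 2 YTHDC readers Ythdc1 and Ythdc2. The rule uses no measured value, and 7 of the 7 symbols were found in every gene table. The study measured RNA, and RNA pulled down with an anti-m6A antibody, in sorted mouse haematopoietic cells. The atlas holds 2 input and 2 IP libraries for each of 16 cell types, with genotype labelled wild type and treatment untreated. They comprise 4 stem and multipotent types (LT.HSC, ST.HSC, MPP and LMPP), 5 committed progenitors (CLP, CMP, GMP, MEP and MkP) and 7 mature types: the lymphoid B_cell, CD4 and CD8, and the DC, Neutrophil, Monocyte and Erythroid samples. A second set holds 2 input and 2 IP libraries per genotype, labelled wild type or Mettl3 -/-, in 7 of these types: MkP, MEP, GMP, CMP, MPP and both HSC types. Another holds 2 LT.HSC libraries labelled Igf2bp2 -/- and 2 wild type. Labelling with 4-thiouridine (4sU), a uridine analogue that is read as T-to-C changes, was done in 2 ways: 3 h of label in 6 wild-type types with 2 libraries each, and a 24 h label followed by a uridine chase of 0.5 to 24 h in wild-type LT.HSC and MkP. By label, 4sU was at 100 mM for the 3 h label, a unit that may be an error, and at 10 µM for the chase. The percents of the 2 ways are therefore not compared. The labels give no age, no Cre or allele design for either knockout, and no statement that replicate libraries came from separate mice, so p-values measure the spread between these libraries, which may be technical.

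N6-methyladenosine (m6A) is written on messenger RNA by a complex around METTL3 and METTL14. FTO and ALKBH5 are dioxygenases of the AlkB family that remove it. Proteins with a YTH domain bind it: YTHDF1, YTHDF2 and YTHDF3 act mostly in the cytoplasm, where YTHDF2 recruits the CCR4-NOT deadenylase to bound transcripts. YTHDC1 is nuclear and is known for roles in splicing and export, while YTHDC2 is an RNA helicase best known from meiosis in the germ line. In blood, YTHDF2 is known to limit the expansion of haematopoietic stem cells.

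In the RefSeq annotation of GRCm38.p6, Fto spans chromosome 8 from 91313367 to 91668433 and Alkbh5 spans chromosome 11 from 60537683 to 60558512. The YTHDF genes lie on chromosome 2 from 180904377 to 180920936 (Ythdf1), chromosome 4 from 132184916 to 132212256 (Ythdf2) and chromosome 3 from 16183148 to 16217037 (Ythdf3). Ythdc1 spans chromosome 5 from 86803980 to 86836659, and Ythdc2 lies on chromosome 18 from 44827730 to 44889720. Values below are read counts per gene divided by a size factor of each library, called normalised values, and are compared within a gene across libraries only.

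The 32 atlas input libraries held between 8.22 M and 21.5 M reads (M, mega). Of 13 types with a marker list, 9 held the highest summed markers in both libraries, and the exceptions touch values below. Both libraries labelled Monocyte had the highest summed neutrophil markers of the atlas, 19050000 to 25370000 against 1858000 to 2026000 in those labelled Neutrophil, and also the highest monocyte markers, 218700 to 262100. In them 1 read counts for 7.96 to 11.6 normalised units, so Ythdf1 rests on 8 and 4 reads there. The 10 most abundant genes took 52.2% to 58.8% of the reads in the Erythroid and 52.8% to 54.1% in the Monocyte libraries, against 6.06% to 31.3% in the others. The 2 B_cell libraries had higher summed dendritic-cell markers (760600 to 993000) than the 2 DC libraries (306800 to 385200), where that list holds MHC class II genes that B cells also use. The 2 CLP libraries (6601 to 8162) were below those of MPP (11430 to 15740) in CLP markers, and the MEP libraries (84940 to 89750) just below Erythroid (90500 to 94230) in MEP markers. Both MkP libraries had more summed GMP markers (713300 to 751000) than CMP (193600 to 443300), beside the MkP calls of Alkbh5, Ythdf2, Ythdc1 and Ythdc2. In neutrophil markers the CD8 libraries (188000 to 333900) ranked next after those labelled Neutrophil, beside the CD8 calls of Ythdc2 and Ythdf2. The LMPP libraries held 35480 to 152200 of these markers, beside the LMPP call of Alkbh5. The part of these mixtures in the results was not tested, and results were computed with and without the Monocyte libraries. In bulk RNA from sorted cells, fewer cells of a type and less RNA per cell cannot be told apart.

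Expression of the 7 genes differed among the 16 types in 7 of 7 cases by limma's F test with Benjamini-Hochberg adjustment, against 92.8% of the 17165 genes tested. The adjusted p ranged from 2.86e-08 for Ythdc2 to 0.0216 for Ythdf1. Between each single type and the mean of the other 15 types, 35 of 112 gene and type pairs passed an adjusted p of 0.05, 14 higher and 21 lower. The background over all genes is 36.6% of pairs, 18.4% higher and 18.2% lower. Ythdc2 accounted for 14 of the 35 pairs. Of the 35 pairs, 8 kept their call under each alternative processing and with each single library left out: Alkbh5 and Fto in Erythroid, Ythdc1 in B_cell, Ythdf2 in Monocyte, and Ythdc2 in B_cell, CD4, MEP and MkP. Another 19 kept it under each alternative processing but lost it when 1 library of the type itself was left out. On simulated data, calls for a single atlas type held more false calls than the 0.05 level states, which applies to the single-type calls below.

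**Figure D1:**
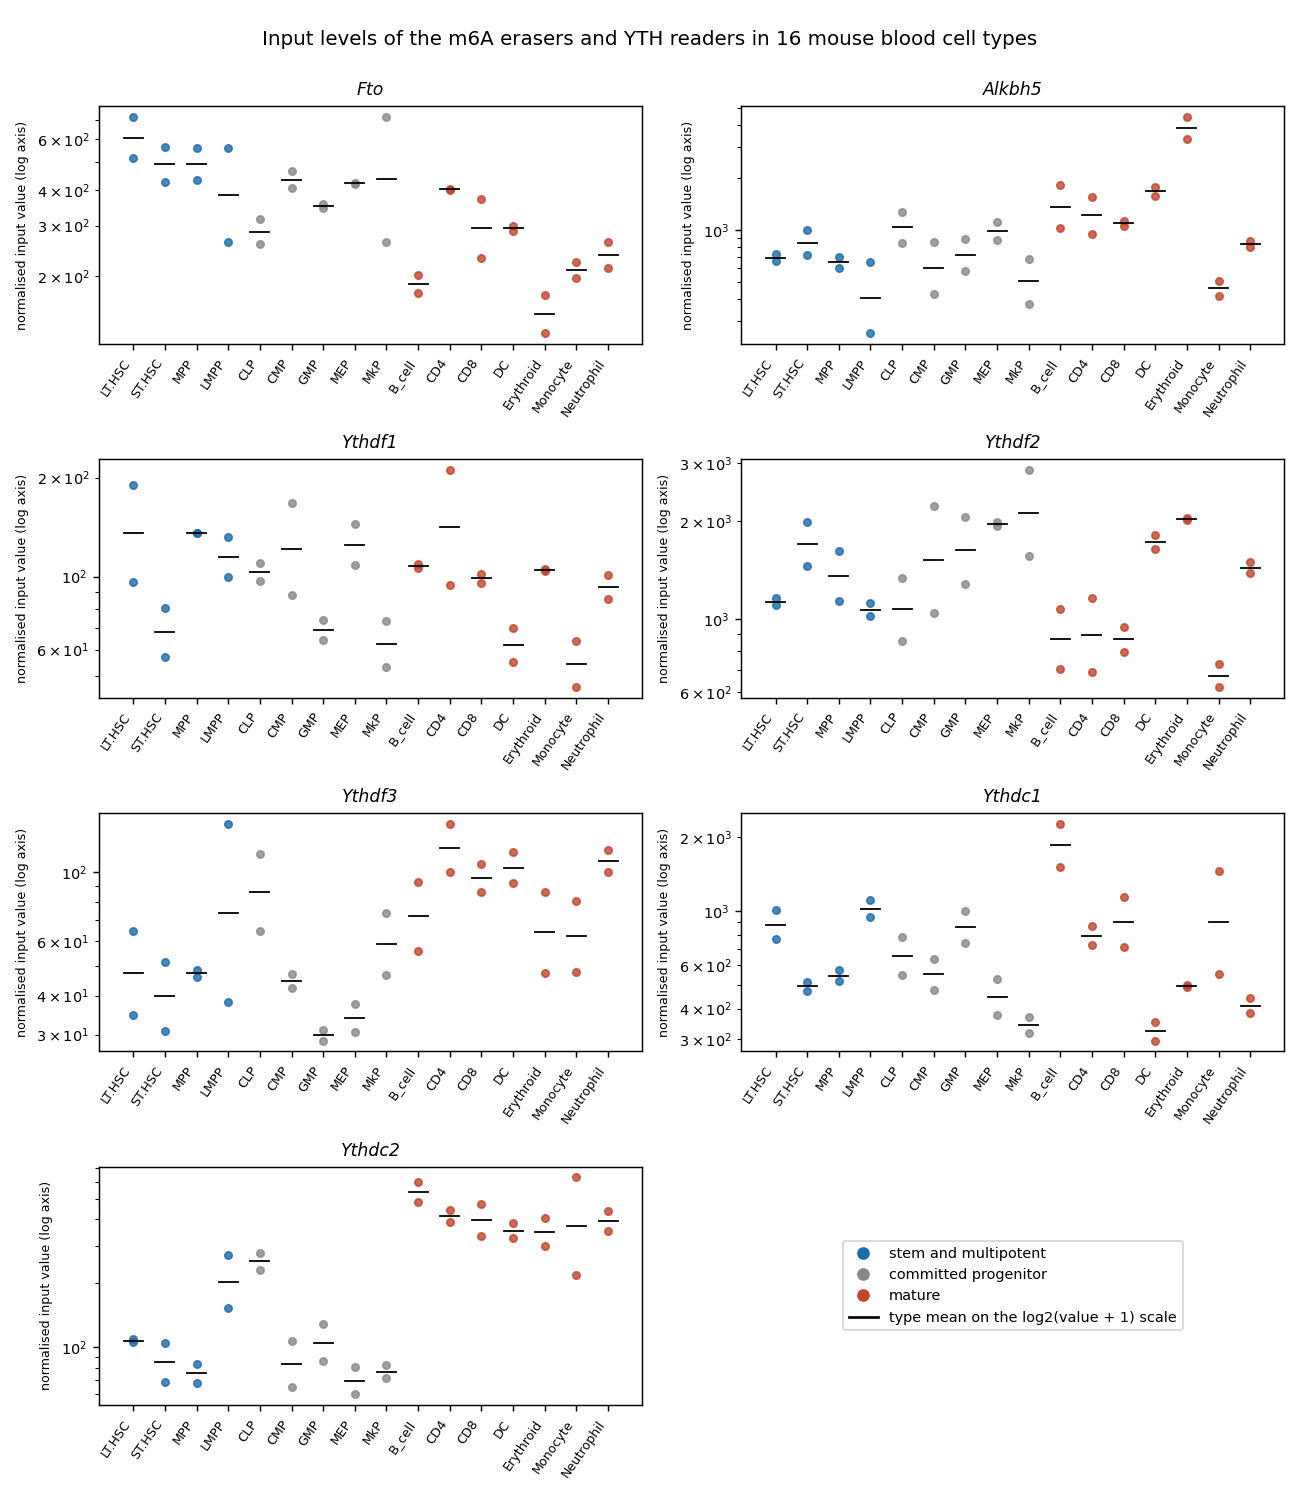
Normalised input value (log axis) of each gene in the 32 atlas input libraries by cell type, with 1 point per library, a bar at the type mean on the log2(value + 1) scale, and colours for stem and multipotent, committed progenitor and mature types. Fto falls from 516 and 716 in LT.HSC to 126 and 171 in Erythroid, Alkbh5 peaks in Erythroid at 3321 and 4485, Ythdc1 peaks in B_cell at 1507 and 2262, and Ythdc2 is at 219 or above in the 14 mature libraries.

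The 2 erasers differed in where they were highest. Fto was highest in stem cells and lowest in Erythroid, and Alkbh5 was highest in Erythroid. Over the 16 type means their Pearson r was -0.56, and both were lower than the rest in Monocyte. The promoters of both are shown because the 2 erasers have opposite calls between mature and stem types. Promoter windows of GRCm38.p6 from RefSeq were used for 5 of the 7 members (Fto, Alkbh5, Ythdf1, Ythdf2 and Ythdc1). Ythdf3 had no usable window, and Ythdc2 was left out of the promoter search by choice. Capitals mark 1 CCAAT and 2 GGGCGG matches in Alkbh5 (chr11:60537433-60537682, plus strand, the 250 bases before the gene) and 1 match of the ZNF143 motif core, read on the minus strand, in Fto (chr8:91313275-91313366, plus strand; the rest of its window lies inside the annotated gene and is not printed).
Alkbh5: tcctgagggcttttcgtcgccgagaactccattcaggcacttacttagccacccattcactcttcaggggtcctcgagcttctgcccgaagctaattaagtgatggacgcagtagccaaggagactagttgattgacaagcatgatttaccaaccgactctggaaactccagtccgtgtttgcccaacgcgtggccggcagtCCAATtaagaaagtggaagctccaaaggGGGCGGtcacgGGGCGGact
Fto: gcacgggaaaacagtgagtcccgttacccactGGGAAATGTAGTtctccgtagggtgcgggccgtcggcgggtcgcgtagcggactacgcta

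In all, 10 motifs were searched on both strands in windows of 250 bases, and the marked matches do not overlap each other. CCAAT occurs in 33.9% of the 32851 windows, GGGCGG in 32.7% and the ZNF143 core in 1.67%. AGATAA (10.0% of windows), TGATAA (7.94%), TATAAA (12.4%), CACGTG (6.02%), TGACG (17.8%), CCGGAA (12.0%) and the NRF1 motif core (0.78%) are not in these 2 windows. The GC content of the Alkbh5 window was 54.0% and that of the whole Fto window 59.2%, at the percentiles 56.5 and 71.1 of all windows.

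Fto, which codes for an eraser of m6A and of the related cap mark m6Am, had its highest mean in LT.HSC, at 616 ± 141 (SD, n = 2 here and for each type below). Types are given in the order of their mean on the log2 scale. MPP (497 ± 89.0), ST.HSC (496 ± 98.5) and MkP (491 ± 323) followed. CMP (435 ± 42.7), MEP (420 ± 2.77), CD4 (401 ± 0.847), LMPP (411 ± 208) and GMP (352 ± 8.82) came next. LT.HSC, MPP and ST.HSC thus held the first ranks, and CD4 was the highest mature type, above LMPP and GMP. CD8 (302 ± 99.6), DC (294 ± 8.07), CLP (287 ± 40.1), Neutrophil (238 ± 34.8), Monocyte (210 ± 18.9), B_cell (188 ± 19.1) and Erythroid (149 ± 31.8) made up the lower part. Neighbours in this order mostly overlapped: 2 of 15 neighbouring pairs had no overlap of libraries, and 0 had a gap in log2 means above the pooled SD of 0.39. Against the mean of the other types, Fto was higher in LT.HSC by 0.93 on the log2(value + 1) scale (SE 0.27, adjusted p = 0.00821 by limma). It was lower in Erythroid by a difference of -1.24 (adjusted p = 0.000451), in B_cell by -0.87 (0.00966) and in Monocyte by -0.71 (0.0303). The calls in LT.HSC and B_cell were lost without the second library of the type (adjusted p = 0.186 and 0.12), and that in Monocyte without either of its libraries (up to 0.192).

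Alkbh5, the other eraser, had 3321 and 4485 in the 2 Erythroid libraries, above each of the other 30. DC (1667 ± 135), B_cell (1416 ± 561), CD4 (1249 ± 429) and CD8 (1091 ± 51.5) were next, so that 5 mature types led the order. The middle ranks held CLP (1057 ± 301), MEP (994 ± 173), ST.HSC (856 ± 196), Neutrophil (830 ± 44.4), GMP (732 ± 219), LT.HSC (693 ± 44.3), MPP (654 ± 66.5) and CMP (638 ± 300). MkP (527 ± 216), Monocyte (463 ± 66.4) and LMPP (453 ± 282) were lowest. Of the 15 neighbouring pairs, only Erythroid and DC were apart, both by library overlap and by a gap above the pooled SD of 0.44. The excess in Erythroid over the mean of the other types was 2.26 (SE 0.30, adjusted p = 6.35e-07), the largest difference from the rest among the 112 pairs. It stayed between 2.04 and 2.47 with any 1 library left out. DC was higher by 0.96 (adjusted p = 0.0125), a call lost without either DC library (up to 0.159). The differences were -1.20 in LMPP (0.00676), -1.01 in Monocyte (0.00586) and -0.87 in MkP (0.0171). Without LMPP library 1 the difference was -0.52 (0.395), without Monocyte library 2 it was -0.86 (0.0953), and without MkP library 2 it was -0.44 (0.407). The MkP call was also lost with TMM scaling (0.0625) and edgeR (0.114).

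Among the YTHDF readers, Ythdf2 had the most type calls, and Ythdf1 the fewest. Ythdf1, described as promoting translation of methylated mRNA, ranged from 54.96 ± 12.4 in Monocyte to 153 ± 82.1 in CD4. MPP (136 ± 0.0976), LT.HSC (143 ± 66.3), MEP (126 ± 25.6), CMP (128 ± 56.8) and LMPP (116 ± 23.0) were next. B_cell (108 ± 2.15), Erythroid (105 ± 0.892), CLP (104 ± 9.34), CD8 (98.9 ± 4.57) and Neutrophil (93.3 ± 10.9) lay close together. A step of more than the pooled SD of 0.37 then led to GMP (69.0 ± 7.01), ST.HSC (68.6 ± 16.4), MkP (63.1 ± 14.1) and DC (62.3 ± 10.3). The single type call was the lower value in Monocyte (-0.86, adjusted p = 0.016), which rests on 8 and 4 reads and was lost without the second Monocyte library (0.203).

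Ythdf2, the reader that brings transcripts to deadenylation, ran from 674 ± 75.2 in Monocyte to 2207 ± 916 in MkP. Erythroid (2023 ± 22.7), MEP (1958 ± 37.3), DC (1725 ± 128), ST.HSC (1715 ± 371), GMP (1670 ± 553), CMP (1631 ± 832) and Neutrophil (1441 ± 83.7) followed MkP. By mean, these 8 types, which include the stem type ST.HSC, lay above CLP, CD4, B_cell and CD8, as did MPP and LT.HSC. Libraries of CMP and GMP overlapped those of CLP, and Monocyte was lowest of the 16. MPP (1376 ± 343), LT.HSC (1133 ± 35.5), CLP (1099 ± 341), LMPP (1072 ± 73.2), CD4 (925 ± 329), B_cell (889 ± 261) and CD8 (872 ± 108) filled the lower ranks. Of 15 neighbouring pairs, 3 had no overlap of libraries and 0 had a gap above the pooled SD of 0.37. Monocyte was lower than the rest by a difference of -1.02 (SE 0.26, adjusted p = 0.00206). MkP was higher by 0.74 (0.0209), which was 0.30 and lost without MkP library 1 (0.493). The higher value in Erythroid (0.68, adjusted p = 0.0357) was lost with TMM scaling (0.105), in edgeR (0.16) and without the Monocyte libraries (0.0595), and the lower value in B_cell (-0.62, 0.0496) became -0.32 without B_cell library 2 (0.498). The B_cell call was lost on leaving out 21 of the 32 libraries, 1 at a time.

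Ythdf3, whose protein shares targets with the other YTHDF readers, was covered by few reads, with a median of 72.5 per library and a lowest of 6. CD4 (121 ± 30.0), Neutrophil (109 ± 12.1), DC (104 ± 16.6) and CD8 (96.1 ± 13.9) had the highest means. CLP (89.4 ± 35.1), LMPP (90.4 ± 74.0), B_cell (74.1 ± 26.0), Erythroid (66.9 ± 27.6), Monocyte (64.3 ± 23.4) and MkP (60.1 ± 19.1) lay between. LT.HSC (49.6 ± 21.2), MPP (47.3 ± 1.72), CMP (44.7 ± 3.28), ST.HSC (41.0 ± 14.4), MEP (34.1 ± 5.12) and GMP (29.9 ± 1.66) were lowest. No neighbouring pair of types was free of overlap. The calls were CD4 higher (0.98, SE 0.38, adjusted p = 0.0411), GMP lower (-1.11, 0.0221) and MEP lower (-0.92, 0.0471). Each was lost without either library of its own type (up to 0.364, 0.18 and 0.307), and edgeR on recovered reads gave 0.0536 for GMP and 0.091 for MEP. The MEP call was lost in 21 of 32 omissions of 1 library and in 4 of 7 other settings, and the CD4 call without the filter on low values (0.0603).

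The YTHDC readers had the widest spread of type means of the 5 readers, 2.51 for Ythdc1 and 2.94 for Ythdc2 on the log2 scale. Ythdc1, the nuclear reader, stood at 1507 and 2262 in the B_cell libraries, above each of the other 30. LMPP (1025 ± 118), CD8 (927 ± 299), Monocyte (1002 ± 633), LT.HSC (887 ± 164), GMP (868 ± 181) and CD4 (794 ± 99.7) followed. CLP (668 ± 167), CMP (558 ± 115), MPP (546 ± 40.6), Erythroid (495 ± 7.76), ST.HSC (492.8 ± 29.7), MEP (454 ± 107), Neutrophil (413 ± 40.4), MkP (344 ± 35.0) and DC (325 ± 40.6) were lower. B cells thus stood apart at the top, and dendritic cells, megakaryocyte progenitors and neutrophils formed the lower end. The B_cell excess was 1.62 (SE 0.25, adjusted p = 1.09e-05), and 1.32 without the second library (0.00413). DC (-1.06, 0.00168), MkP (-0.97, 0.00253) and Neutrophil (-0.69, 0.0292) were lower than the rest. These calls were lost without DC library 2 (0.0728), MkP library 2 (0.0637) and either Neutrophil library (up to 0.244).

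Ythdc2, the helicase reader, had the most type calls of the 7 genes. In the 14 mature libraries it ranged from 219 to 629 with a median of 398. In the 8 stem and multipotent libraries it ranged from 68.1 to 270 with a median of 105, and in the 10 committed progenitor libraries from 60.0 to 277 with a median of 84.2. Of the mature libraries, 13 of 14 lay above each stem and multipotent library, and the exception was the second Monocyte library, which held 19 reads of the gene. The share of all genes with such a separation was not computed, so this count only describes the gene. The order of means began with B_cell (541 ± 84.1), CD4 (417 ± 38.5), CD8 (402 ± 96.2), Neutrophil (394 ± 61.8), Monocyte (424 ± 290), DC (355 ± 38.8) and Erythroid (353 ± 74.3). CLP (254 ± 32.6) and LMPP (212 ± 83.2), types with lymphoid potential, came next and were the 2 types without a call against the rest. LT.HSC (107 ± 2.63), GMP (107 ± 29.8), ST.HSC (86.4 ± 24.9), CMP (85.9 ± 29.8), MkP (76.8 ± 7.76), MPP (75.6 ± 10.6) and MEP (70.2 ± 14.4) closed the order. Among 15 neighbouring pairs, 2 had gaps above the pooled SD of 0.40. The 7 mature types were each higher than the rest, by 0.94 in Erythroid to 1.60 in B_cell (adjusted p = 6.55e-05). The other 7 types were each lower, from -0.87 in LT.HSC to -1.53 in MEP (0.000115). These 14 calls also held in edgeR on recovered reads. Leaving out 1 library of the type itself ended 10 of the 14, and the Monocyte value was then 0.28 without Monocyte library 1 (adjusted p = 0.503).

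**Figure D2:**
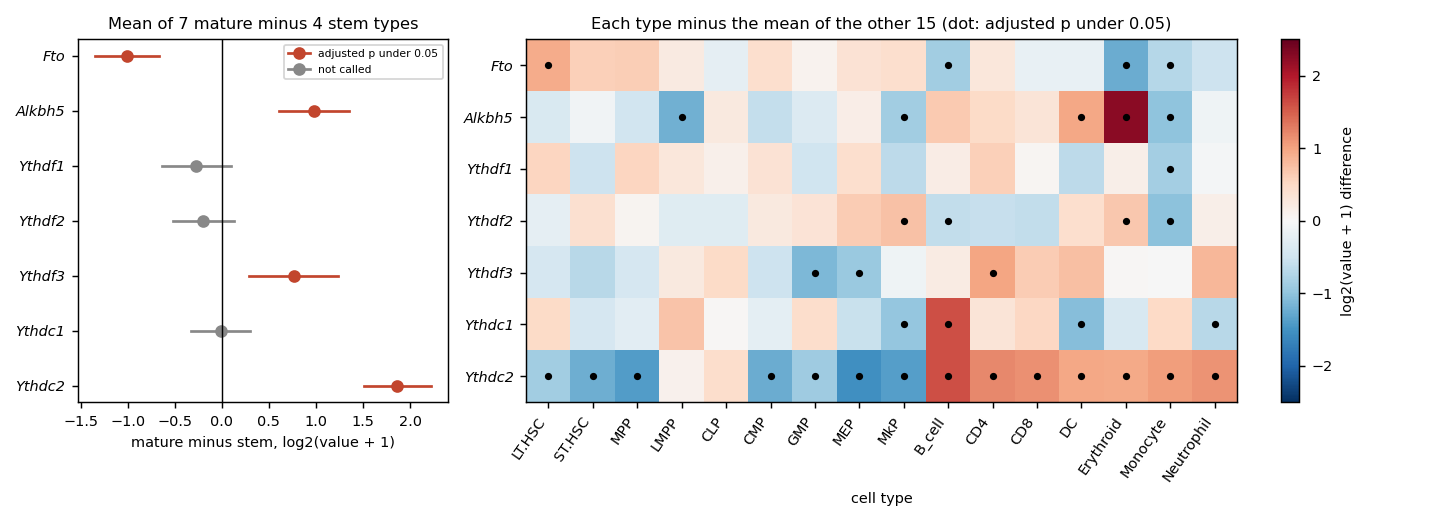
Left, mean of the 7 mature types minus mean of the 4 stem and multipotent types for each gene on the log2(value + 1) scale, with 95% confidence intervals from limma. Right, each type minus the mean of the other 15 types as a colour scale, with a dot where the adjusted p is under 0.05: Ythdc2 carries 14 dots and Alkbh5 in Erythroid has the strongest colour, at 2.26.

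Between mature and stem types, 4 of the 7 genes changed, against 59.3% of all genes, where 30.6% were higher and 28.8% lower in mature types. Fto fell by 1.01 (SE 0.16, adjusted p = 9.85e-06, limma). Its 14 mature libraries ranged from 126 to 401 with a median of 227, and its 8 stem libraries from 264 to 716 with a median of 537. Alkbh5 rose by 0.98 (SE 0.18, adjusted p = 5.18e-05), with a median of 1091 over mature (416 to 4485) against 681 over stem libraries (254 to 995). Ythdf3 rose by 0.76 (SE 0.23, adjusted p = 0.00589), with ranges of 47.4 to 142 and 30.8 to 143 and medians of 92.3 and 47.3. Ythdc2 rose by 1.87 (SE 0.18, adjusted p = 1.9e-09). The groups overlapped for each of the 7 genes, and for Fto 9 of 14 mature libraries lay below the lowest stem library. The share of all genes with such an overlap was not computed. Ythdf1 (-0.27, 95% confidence interval -0.64 to 0.10), Ythdf2 (-0.20, -0.53 to 0.13) and Ythdc1 (-0.01, -0.33 to 0.30) did not pass. In edgeR on recovered reads Ythdf3 was lost (0.53, adjusted p = 0.0623) and Ythdf1 gained (-0.44, 0.0388). There the median of all genes moved from 0.07 to -0.12 and the higher share of the calls from 51.5% to 39.3%, while the 4 genes kept their sign relative to that median. Without the Monocyte libraries the 4 calls held, at -0.98 for Fto, 1.21 for Alkbh5, 0.84 for Ythdf3 and 1.88 for Ythdc2.

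Genes around these members were counted from 4 fixed lists, beside 30.6% of all genes higher and 28.8% lower in mature types. Of the 9 genes of the writer complex, 1 was higher and 1 lower in mature types: Wtap, its scaffold subunit, rose by 0.64 (adjusted p = 0.0101) and Rbm15b, an RNA-binding subunit, fell by 0.99 (0.000336). Of 9 other m6A readers, 5 were higher and 2 lower, led by Hnrnpa2b1 (1.62), Igf2bp3 (1.32) and Elavl1 (1.14). Of 7 other AlkB dioxygenases, 2 were higher and 3 lower, with Alkbh6 (-1.32), Alkbh2 (-0.96) and Alkbh1 (-0.67) the largest. Of 19 genes for protein partners of the YTH readers, 17 were tested, 5 were higher and 3 lower. These included Xrn1, the main cytoplasmic exonuclease (1.07), Rida, the adaptor between YTHDF2 and RNase P/MRP (-1.04), and the splicing factor Srsf3 (0.99). The list medians were -0.17, 0.56, -0.24 and -0.22, beside -0.01 for the 7 members and 0.07 for all genes.

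Over the 16 type means, the most alike members were Ythdf3 and Ythdc2 (Pearson r = 0.815). The most opposed were Fto and Ythdc2 (-0.771) and Ythdf2 and Ythdc1 (-0.765). The 16 points share libraries and size factors, so these are descriptions. Among 10362 candidate genes with a mean value of at least 50, those most like each member were Ccnl1, Mob4 and Ankrd12 for Ythdc2 (r = 0.971, 0.956 and 0.947) and Tbp, Tada1 and Kctd5 for Ythdf2 (0.954, 0.932 and 0.919). They were Tmx3, Wdr37 and Nabp1 for Ythdf3 (0.935, 0.918 and 0.916) and Prdm10, Son and Zfp605 for Ythdc1 (0.928, 0.876 and 0.872). Fto was followed by Tmco4, F2rl3 and Spint2 (0.923, 0.919 and 0.914), Alkbh5 by Afmid, Stk38l and Cdr2 (0.923, 0.902 and 0.882), and Ythdf1 by Ctnnb1 and Srbd1 (0.878 and 0.846).

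The antibody libraries show how strongly each transcript was recovered with m6A antibody. Log2 IP minus log2 input was set against the median of all 17165 genes in the same libraries, since the 2 tables are scaled separately. The transcripts of Ythdf1 and Ythdf3 were recovered more than the median gene in each of 32 library pairs. Ythdf1 lay between the percentiles 73.3 (LT.HSC) and 98.4 (CLP) of all genes, with a median over types of 94.3. Ythdf3 lay between 77.3 (CMP) and 98.9 (LMPP), with a median of 93.4. Both were above the 90th percentile in 11 of 16 types. Ythdc1 (median percentile 75.9), Alkbh5 (70.1) and Fto (62.8) were above the middle in 15, 14 and 14 types, Ythdf2 (56.04) in 11 and Ythdc2 (43.6) in 7. For comparison, the median gene of the writer list lay at 66.5, of the other readers at 48.5, of the other AlkB genes at 21.1 and of the partner list at 65.2. In the second wild-type set, Ythdf1 again lay at 91.7 or above in 7 of 7 types (median 96.2), Ythdf3 at 56.1 or above (median 79.9) and Ythdc1 at 71.3 or above (median 83.9). Fto, by contrast, lay at 41.6 or below in those 7 types (median 29.5). The medians of Alkbh5, Ythdf2 and Ythdc2 were 65.2, 48.6 and 54.4. Percentiles of this set are among the 15030 genes tested in it. The LT.HSC and ST.HSC values of this set rest partly on few counts. Their IP library 1 held 6 and 8 counts of Ythdf1 and 4 and 4 of Ythdf3. For Ythdc1 these were 25 and 21, and for Fto 10 and 5. For Alkbh5 they were 12 and 18, for Ythdf2 48 and 37, and for Ythdc2 5 and 4. In MkP, IP library 1 held 19 counts of Fto and 5 of Ythdc2, against 591 and 373 in library 2. The antibody measures a whole transcript here, so the number and place of methylated sites were not analysed.

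**Figure D3:**
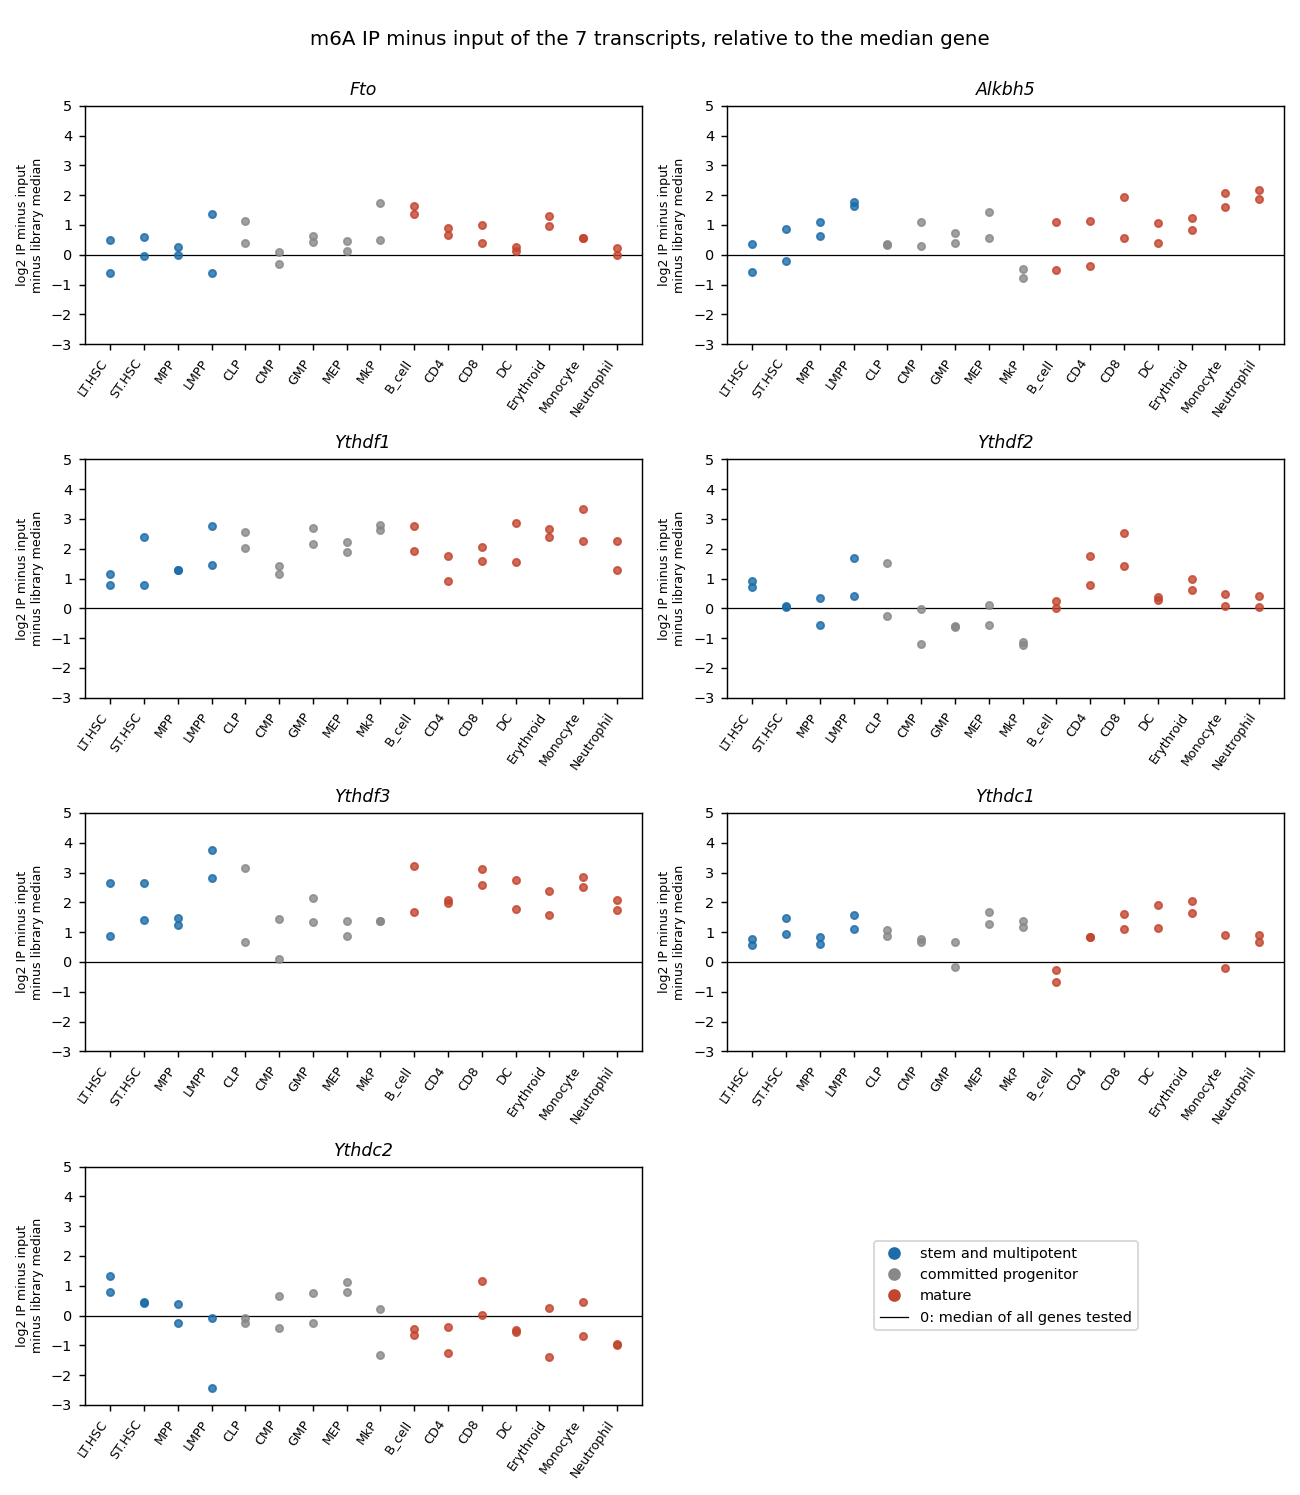
Log2 IP minus log2 input of each gene minus the median of all genes, by cell type, with 1 point for each pair of same-numbered IP and input libraries and a line at 0 for the median gene. The points of Ythdf1 and Ythdf3 lie above 0 in 32 of 32 pairs, whereas Ythdf2 reaches -1.23 and -1.12 in MkP and 1.41 and 2.53 in CD8.

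IP minus input differed among types for 3 of the 7 genes, Alkbh5, Ythdf2 and Ythdc1 (adjusted p = 0.0336, 0.0162 and 0.0262, limma), against 26.5% of all genes. For single types, 3 of 112 pairs passed, 1 higher and 2 lower, against 3.38% of pairs over all genes (1.04% and 2.34%). Ythdc1 was lower in B_cell than in the rest by a difference of -1.45 (SE 0.32, adjusted p = 0.00613). Ythdf2 was higher in CD8 by 1.505 (SE 0.41, 0.00886) and lower in MkP by -1.70 (SE 0.41, 0.0182). In B_cell, Ythdc1 was therefore high in input and low in IP minus input, and Ythdf2 was so in MkP. The same input libraries enter both measures with opposite sign. In the IP libraries alone, with TMM scaling to a common total of 10000000, Ythdc1 stood at 961 and 1126 in B_cell, rank 6 of 16. There Ythdf2 stood at 634 and 983 in MkP, rank 14, and at 1653 and 2970 in CD8, rank 1. These ranks were not computed without TMM. With library totals in place of TMM the differences in IP minus input were -0.38 (Ythdc1 in B_cell), 1.07 (Ythdf2 in CD8) and -1.85 (Ythdf2 in MkP). None of the 3 then passed (adjusted p = 0.529, 0.105 and 0.0581). Each of the 3 was also lost on leaving out 1 library of its own type, at -1.23 (0.11), 1.08 (0.129) and -1.27 (0.251). Of the calls among types, that of Alkbh5 was lost without the Monocyte and Erythroid libraries (0.0934) and without the filter on low values (0.0661). It was also lost in 17 of 64 omissions of 1 library (up to 0.121), that of Ythdc1 in 4 (up to 0.0868) and that of Ythdf2 in 1 (0.0513). With library totals in place of TMM, Ythdc1 did not pass among types (adjusted p = 0.355), while Fto (0.0131) and Ythdf1 (0.00482) did.

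The Mettl3 comparison asks how eraser and reader RNA changes when the main writer is removed. The targeted gene did not separate the libraries by label: Mettl3 read 274 to 931 (median 489) in the 14 input libraries labelled Mettl3 -/- and 127 to 5370 (median 428) in the 14 labelled wild type. The 5370 was LT.HSC library 1, and the other wild-type libraries reached at most 656. The sources used here do not say where the deletion lies, and reads outside it check nothing, so the groups are named by their labels. In the mean over 7 types, 1 of 7 members changed, against 10.1% of the 15030 genes tested (7.24% higher, 2.89% lower). Ythdf2 rose by 0.72 in the libraries labelled Mettl3 -/- (SE 0.19, 95% confidence interval 0.33 to 1.10, adjusted p = 0.0159, limma). Its 14 values ran from 2393 to 8150 (median 3940) against 1827 to 3642 (median 2690) in those labelled wild type. Both libraries labelled knockout lay above both labelled wild type in 4 of 7 types, namely CMP, LT.HSC, MPP and MkP, against 16.8% of all gene and type pairs.

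**Figure D4:**
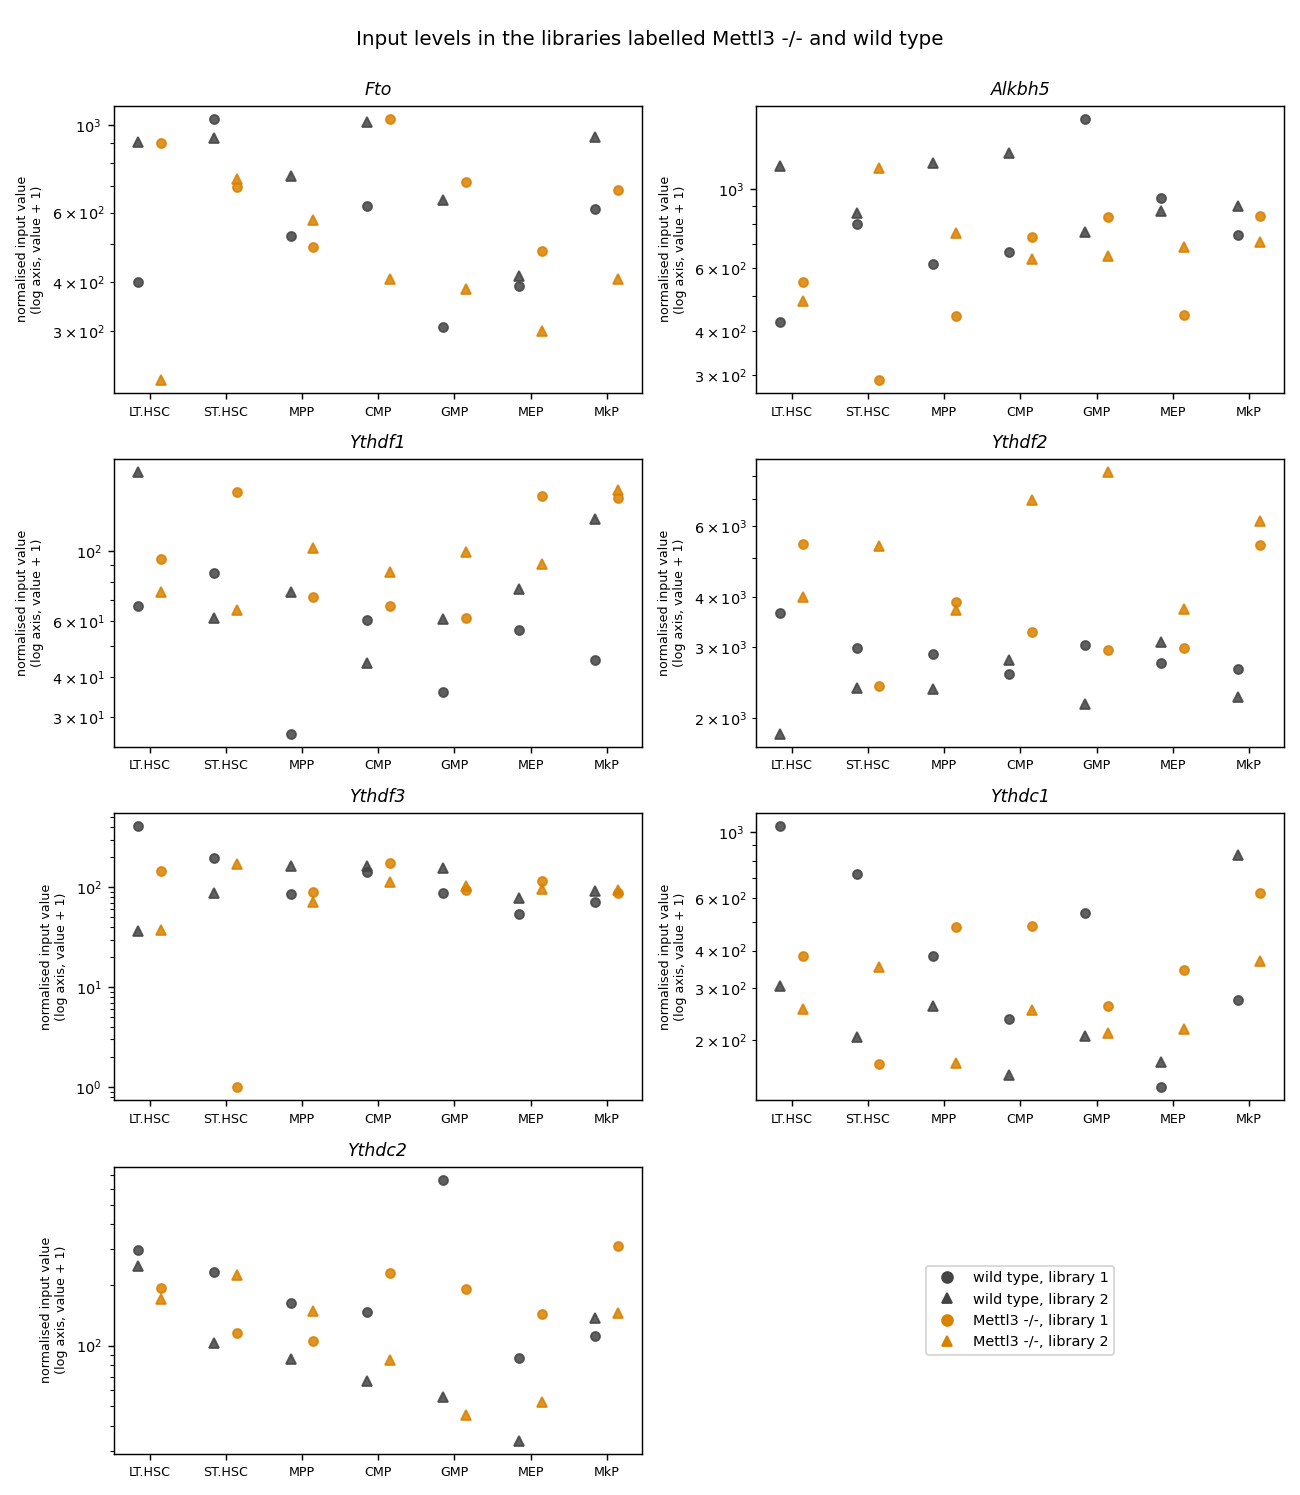
Normalised input value plus 1 (log axis) of each gene in 7 cell types, for libraries labelled wild type (grey) and Mettl3 -/- (orange), with circles for library 1 and triangles for library 2. For Ythdf2 the library 2 triangles labelled Mettl3 -/- lie above their wild-type counterparts in 7 of 7 types, and Ythdf3 is 0 in 1 library of ST.HSC.

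Ythdf2 was highest in MkP (5778 ± 565 against 2444 ± 281) and GMP (5545 ± 3680 against 2597 ± 617). It was closest in MEP (3359 ± 527 against 2913 ± 249). CMP (5109 ± 2600 against 2677 ± 147), LT.HSC (4708 ± 1000 against 2734 ± 1280), ST.HSC (3863 ± 2080 against 2680 ± 437) and MPP (3794 ± 121 against 2620 ± 366) lay between. The rise was uneven over the library numbers: 0.30 ± 0.44 (SD over 7 types) and higher in 5 of 7 types for number 1, but 1.13 ± 0.54 and higher in 7 of 7 for number 2. Same-numbered libraries of different types deviated together within a genotype, with correlations over 0.1 in 15 of 21 pairs of types labelled Mettl3 -/- and 19 of 21 labelled wild type. The 14 libraries of a label are therefore not independent, and the p above treats them as such. When the 7 types were averaged to 1 value per genotype and library number, 2 against 2, Ythdf2 did not pass (adjusted p = 0.407). With each single library left out, the difference stayed between 0.61 and 0.82 and the call held, with an adjusted p of at most 0.0413.

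The other members did not pass in the mean over types. Ythdf1 differed by 0.59 (95% confidence interval 0.04 to 1.14, adjusted p = 0.16). Both of its libraries labelled knockout lay above both wild type in 4 of 7 types, against 16.8% of all gene and type pairs. By library number its difference was uneven, 0.968 ± 0.563 for number 1 and 0.215 ± 0.705 for number 2. Alkbh5 differed by -0.47 (-0.92 to -0.03, 0.165), Fto by -0.25 (-0.72 to 0.21), Ythdf3 by -0.59 (-1.68 to 0.50), Ythdc1 by -0.07 (-0.63 to 0.50) and Ythdc2 by 0.07 (-0.65 to 0.79). The Fto difference had opposite signs by library number, 0.41 ± 0.66 for number 1 and -0.92 ± 0.62 for number 2, where it was lower in 7 of 7 types. Ythdf3 includes a value of 0 in ST.HSC library 1 labelled Mettl3 -/-. Without ST.HSC library 2 of that label, Alkbh5 and Ythdf3 passed too (adjusted p = 0.0291 and 0.0218). Within single types 0 of 49 pairs passed (0.404% of pairs over all genes, 0.381% higher and 0.0228% lower), and the genotype effect differed among types for 0 of 7 (0.0133% of all genes). Of the fixed lists, 2 of the 9 other readers fell, Rbmx (-1.68, adjusted p = 0.00624) and Igf2bp2 (-1.44, 0.0342), and none rose. Of the partners, 1 rose and 4 fell, including Upf1 of nonsense-mediated decay (-1.34), the deadenylase Cnot7 (-0.88) and Srsf10 (-0.73). One AlkB gene rose, Alkbh4 (1.15, 0.014), and 0 of 9 writer genes passed. Of all genes, 7.24% were higher and 2.89% lower in this mean. The list calls come from the same fit, which treats libraries of a label as independent. With 1 mean per genotype and library number, 1 gene of all tested was higher and 0 were lower, so the falls named here did not pass.

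The wild-type libraries of this set repeat 7 atlas types. Here 0 of 7 members differed among the types, against 19.9% of all genes, and the lowest adjusted p was 0.317 for Ythdc1. Set side by side, the type means correlated over these 7 types with r = 0.885 for Ythdc2, which was highest in LT.HSC and lowest in MEP in both sets. For the others r lay between 0.00437 (Ythdf1) and 0.385 (Fto), each over 7 means of 2 libraries. Ythdf2, highest in MkP in the atlas, was lowest there in the second wild-type set.

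For IP minus input between the labels, 0 of 7 members passed, with wide intervals. Of all genes tested 0 passed (0.0%), with 700 genes at an unadjusted p under 0.05 by limma, the one tool run. With the 3 IP libraries named next left out together, 0 genes passed. The differences ran from -0.39 for Ythdc2 (95% confidence interval -1.85 to 1.08) to 0.73 for Ythdc1 (-0.19 to 1.65). These are relative to other genes, since a loss shared by all transcripts is removed by the scaling. Among the IP libraries, 10 genes took 94.2% of the counts in wild-type LT.HSC library 1 and 75.8% in wild-type ST.HSC library 1, and MEP library 1 labelled Mettl3 -/- held 0.82 M counts. Ythdf1 stayed high in the order of all genes under both labels, at a median percentile of 91.8 in the 7 types labelled Mettl3 -/- and 96.2 in wild type.

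In LT.HSC labelled Igf2bp2 -/-, a knockout of another m6A reader, 0 of 7 members and 0 of 12221 genes passed edgeR's quasi-likelihood test (0.0%), with 777 genes at an unadjusted p under 0.05 and 94 called by DESeq2, no member among them. The targeted gene read 17.3 and 12.2 CPM (counts scaled to library size) in the 2 libraries labelled Igf2bp2 -/- and 6.19 and 48.0 in wild type, so it did not separate the labels. Ythdf3 had 22 and 1 counts in the libraries labelled knockout and 697 and 76 in wild type, which is 6.24 and 0.151 against 30.4 and 13.9 CPM (log2 difference -2.83, adjusted p = 0.857). Ythdf2 read 1739 and 715 against 613 and 668 CPM (0.94, 0.867). For Alkbh5 the values were 2217 and 1072 against 759 and 1364. Fto read 38.5 and 61.5 against 93.7 and 81.5, and Ythdc2 9.64 and 16.7 against 43.0 and 23.9. Ythdf1 read 23.5 and 0.754 against 18.8 and 14.1, and Ythdc1 139 and 60.1 against 90.2 and 88.2. The share of all genes whose libraries separate by label was not computed for this set, so separation is not read from these values.

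After 3 h of 4sU, a T-to-C ratio was deposited for each gene, which is higher where more of the RNA carries the label. Its denominator is not given in the authors' tables, so a percent here is that ratio and not a share of newly made transcripts. Library medians over genes ran from 0.309% to 1.71%, so each value was also set against its library's median. Of the 84 values of the 7 members, 77 were above the library median. Ythdf1, Ythdf2 and Ythdc1 were above it in 12 of 12 libraries, Alkbh5 and Ythdf3 in 11, Fto in 10 and Ythdc2 in 9. Ythdf3 had the highest median percentile among the genes tested, 88.2, with ratios from 0.299% to 7.78%. Ythdf2 followed at 87.7 (0.479% to 3.80%), then Ythdf1 at 81.1 (0.634% to 3.92%), Ythdc1 at 75.1 (1.05% to 3.23%), Alkbh5 at 69.8 (0.278% to 3.52%), Fto at 65.7 (0.285% to 3.04%) and Ythdc2 at 59.8 (0.227% to 5.80%). Differences among the 6 types passed for 0 of 7 members and 0 of 13909 genes (0.0%), with 1695 at an unadjusted p under 0.05 by limma, and 0 of 42 single-type pairs passed (0.0467% over all genes, 0.0108% higher and 0.0359% lower). The 2 GMP libraries were far apart, for example 7.78% and 0.299% for Ythdf3.

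**Figure D5:**
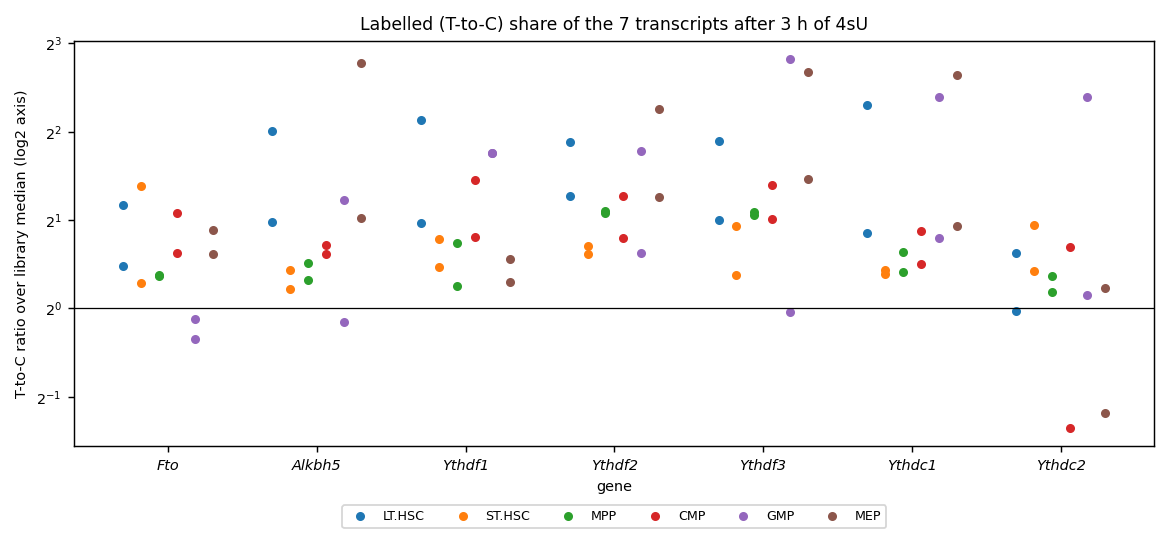
T-to-C ratio after 3 h of 4sU divided by the median of the same library (log2 axis), for each gene, with 1 point per library and colours for the 6 cell types. Most points lie above the line at 1 (77 of 84), and the 2 GMP libraries of Ythdf3 lie at 7.07 and 0.97.

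The chase tables are named averages by the authors and give no replicate values, and many entries are missing. The sample labels used here list 2 libraries per time for LT.HSC and 1 for MkP. Ythdf2 and Alkbh5 were listed at 7 of 7 times in both cell types. Ythdf2 in LT.HSC went from 0.1025% at 0.5 h and 0.267% at 1 h to 0.0347% at 3 h, 0.00953% at 6 h, 0.00641% at 9 h, 0.0132% at 12 h and 0.00622% at 24 h. In MkP it went from 0.0858% and 0.0861% to 0.0422%, 0.0161%, 0.0123%, 0.00946% and 0.0148% at the same times. The authors' averages for Ythdf2 were thus lower from 3 h on than at 0.5 h in both types, as were the medians over listed genes from 3 h to 12 h (0.0212% to 0.0276% against 0.05605% in LT.HSC). Alkbh5 in LT.HSC started at 0.0132% and was 0.00505% at 24 h, with 0.0350% at 1 h, and in MkP it started at 0.0858% and was 0.0147% at 24 h. Fto was listed at 6 of 7 times in each type and had higher values at 24 h (0.121% and 0.145%) than at 0.5 h (0.0170% and 0.00601%). The LT.HSC median over listed genes was also higher at 24 h, 0.0919% over 3125 genes, where Fto lay at percentile 54.5. In MkP that median was 0.0158% at 24 h against 0.0697% at 0.5 h, and Fto lay at percentile 90.5 at 24 h. Ythdc1 was listed at 5 times in each type, Ythdc2 at 4 in LT.HSC and 1 in MkP, Ythdf3 at 2 and 4, and Ythdf1 at 1 and 2. The genes listed change with time, from 2225 to 8135, so no decay rate was computed.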

How the data were processed

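Input tables hold, per the file headers and values, gene read counts that the authors divided by a size factor: in the atlas and Mettl3 inputs 100% of values came out as whole reads within 0.1 (unit: normalised signal). The deposited atlas IP and Igf2bp2 tables hold counts, and the deposited Mettl3 IP table holds estimated counts, rounded here. The deposited T-to-C tables give a fraction per gene, printed as percent, with no depth. GRCm38, fastp, Trimmomatic and kallisto are named in the submitters' processing notes, without versions or roles. Input was 100 ng of total RNA per pull-down with 0.5 µg of antibody.

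Genes that reached a value of 10 in 2 or more input libraries were kept. The test was limma (version 3.58.1, under R 4.3.3) on log2(value + 1), which understates changes of low genes, with Benjamini-Hochberg adjustment at 0.05. IP minus input used 1 fit over both tables, TMM within each. Igf2bp2 counts used edgeR 4.0.16 (quasi-likelihood), with DESeq2 1.42.0 as alternative. T-to-C values were tested as log2(percent + 0.1) where 6 or more libraries exceeded 0. Depth was 8.22 to 21.5 M reads (mega, atlas input), 10.8 to 24.6 (atlas IP), 3.42 to 20.2 (Mettl3 input), 0.82 to 22.9 (Mettl3 IP) and 4.68 to 20.0 (Igf2bp2). Scripts were tested on simulated data, where calls for a single atlas type held more false calls than the 0.05 level states. Named genes were the members, the 3 largest called changes of each fixed list and the 3 genes most like each member, of which 1 is not reported here. Members and lists were chosen with earlier results of these data known. Alternatives covered pseudocount, filter, scaling, tool, replicate block and each library left out.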

Additional observations from a re-analysis of the deposited data

Results flagged for a closer look

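IP minus input differed among the 16 atlas types for 3 members, by a test of that difference across types (limma): Ythdf2 (adjusted p = 0.0162), Ythdc1 (0.0262) and Alkbh5 (0.0336). Of all genes tested, 26.5% passed the same test. The Ythdf2 and Ythdc1 pattern includes CD8, MkP and B_cell. Alkbh5 passed this test with a call in 0 single types. Which members passed depended on scaling: with library totals in place of TMM, Ythdc1 did not (0.355), and Fto (0.0131) and Ythdf1 (0.00482) did.

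Of 14 groups of 8 or 10 libraries looked at for 1 library far from the others by Dixon's ratio, 4 held one, where chance gives about 1 in 20. Fto was 719.4 in MkP library 1, the highest of 10 committed progenitor libraries. Ythdf3 was 142.7 in LMPP library 2, the highest of 8 stem and multipotent libraries, and 114.2 in CLP library 1, the highest of 10 committed progenitor libraries. Ythdc2 was 270.4 in LMPP library 1, again the highest of 8. The groups pool several cell types, so a distant library can also be a distant type.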

How the results depend on the processing

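The 7 calls among atlas types and the 4 between mature and stem types kept their number with any 1 library left out, and the 35 single-type calls became 29 to 37. Leaving out 1 library moved the members called for IP minus input among types between 1 and 4, for single types between 2 and 8, for the Mettl3 input mean between 1 and 3, within Mettl3 types between 0 and 1, and for new RNA between 0 and 1 among types and 0 and 4 in single types. The extra new RNA calls came without GMP library 1. With library totals in place of TMM, 8 single-type calls of IP minus input passed in place of 3, and none of the original 3 did. With 1 mean per genotype and number, 0 members passed in place of 1 for Mettl3 input. The cause was not tested.

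Values with a changed sign were all without a call. Without the type LT.HSC, Ythdc1 in Mettl3 input was 0.0647. With library totals, which move the median of all genes to 0.713, Mettl3 IP minus input was 0.497 for Ythdc2, 0.783 for Ythdf1, 0.562 for Ythdf2 and 0.845 for Ythdf3. With 1 library left out it ran from -0.236 to 0.586 for Alkbh5, -0.277 to 0.384 for Fto, -0.714 to 0.0154 for Ythdc2, -0.264 to 0.0424 for Ythdf1 and -0.611 to 0.49 for Ythdf3. Mettl3 input then ran from -0.197 to 0.0638 for Ythdc1 and -0.189 to 0.324 for Ythdc2, mature against stem from -0.112 to 0.0862 for Ythdc1, and Igf2bp2 from -0.556 to 0.647 for Ythdc1 and -4.42 to 0.525 for Ythdf1.

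Counts over all genes that moved by more than 1.5 times were 8833 against 4548 for IP minus input among types without TMM. For its single types they were 22235 without TMM, 13964 without the filter and 5146 in edgeR, against 9277. The Mettl3 input mean gave 1 gene with 1 mean per genotype and number and 934 without LT.HSC, against 1522. Its interaction gave 28 without the filter, 0 in edgeR and 10 without LT.HSC, against 2, and its single types 166 in edgeR against 425. Mettl3 IP minus input gave 3 without the filter against 0. Igf2bp2 gave 94 in DESeq2 and 44 without the filter against 0. New RNA among types gave 12 with a pseudocount of 1% and 69 without the filter against 0, and its single types 64, 153 and, with libraries centred, 0 against 39.

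With the replicate number as a block, 34 of 35 single-type input calls passed, Ythdf2 in B_cell being lost (adjusted p = 0.0536), and no other member's call changed: 7, 4, 3, 3 and 1 members were called where 7, 4, 3, 3 and 1 were without it. The block moved all-gene counts to 651 within Mettl3 types, 8 for Igf2bp2 and 2 for new RNA single types. The numbers did not pair the groups compared: same-numbered deviations correlated over 0.1 in 16 of 120 pairs of atlas groups, 2 of 7 Mettl3 pairs of knockout with wild type in 1 type and 0 of 15 new RNA pairs. Within a Mettl3 label they did so across types, in 15 of 21 (knockout) and 19 of 21 (wild type) pairs. Alternatives that leave out Monocyte, Erythroid, LT.HSC or doubtful IP libraries, or centre libraries, were chosen after seeing the data. Depth limits Ythdf1 and Ythdf3 most, with medians of 102 and 72.5 reads per atlas input library.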
